A study of Mus musculus with 2 samples.

Results

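The proteasome subunit genes were followed in testis RNA of adolescent mice, with and without exposure to bisphenol A (BPA), an estrogen-like compound used to make plastics. Members were taken by name: rows of the table of all genes whose Entrez gene ID maps to a protein-coding mouse gene called Psma, Psmb, Psmc or Psmd with a number. This gave 39 genes of the 44002 rows. The core particle has 19 of them (8 Psma and 11 Psmb genes) and the regulatory particle has 20 (6 Psmc and 14 Psmd genes).

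The proteasome is the barrel-shaped protease that degrades proteins tagged with ubiquitin. Its core is a stack of alpha rings (Psma) that gate the entrance and beta rings (Psmb) that carry the cutting sites. Regulatory particles on its ends recognise, deubiquitinate, unfold and feed in the substrate with ATPases (Psmc) and non-ATPase subunits (Psmd). Male germ cells build a variant core in which Psma8 takes the place of Psma7, and they use Psme4 as an activator during histone removal. Immune cells swap the catalytic beta subunits Psmb5, Psmb6 and Psmb7 for Psmb8, Psmb9 and Psmb10.

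Each group was 1 library of oligo(dT)-selected testis RNA from BALB/c mice at postnatal day 45. The control library carries no treatment label and was assigned from its title, and the other library was labelled as exposed to BPA. In each group 3 samples were mixed before sequencing. The sources used here do not say whether these were 3 animals, nor how much BPA was given, how or for how long. With 1 library a group there was no replicate check and no test between the conditions, and every difference below is between these 2 libraries. Below, "with BPA" stands for the exposed library and "in the control" for the other, and of 2 values side by side the first is that with BPA unless the sentence says otherwise.

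Levels are in CPM, read counts scaled to a common library total, and the full scale stood for 45377700 reads with BPA and 41801900 in the control. The log2 ratio of BPA over control was taken with a pseudocount of 0.1 CPM, for genes that reached 1 CPM in at least 1 library. Genes with a ratio of 2-fold or more in size are called higher or lower. Fold differences are ratios of CPM without the pseudocount, followed by a 95% interval of the reads. It covers counting error only, not variation between animals or library preparations. The p-values and q-values of the authors' deposited table rest on the same 2 libraries and do not measure that variation either. The interval treats each read as independent, so copies made by PCR would make it too narrow even for counting error. Germ cell markers were present, with 12 of 12 spermatocyte and 10 of 10 spermatid markers at 1 CPM or more in both libraries. The summed level of the spermatocyte list was 7544 CPM with BPA and 7448 CPM in the control, and that of the spermatid list 21094 and 19875 CPM. The Sertoli list (11 of 11 detected, all above 0 on the log2 scale) summed to 1192 and 1053 CPM, and the adipocyte list, with 8 of 11 called lower, to 33.3 and 93.6 CPM. Of 17 immune and macrophage markers 11 reached 1 CPM, with sums of 125 and 116 CPM. The part of these lists in the differences below was not tested, and in bulk RNA fewer cells of a type and less RNA per cell cannot be told apart.

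Most of the proteasome genes stood at close to the same level in both libraries, and Psmb6 and Psmd10 were the exceptions. Psmb6, which encodes the caspase-like catalytic subunit, was at 139 CPM with BPA and 21.2 CPM in the control. Psmd10, which encodes the assembly chaperone gankyrin, was at 0.0881 CPM and 4.23 CPM. Of the 39 members, 36 reached 1 CPM in at least 1 library. Among these, 1 was called higher, 1 was called lower and 34 lay within 2-fold. By the same rule 1.32% of all 19389 genes at this level were called higher and 1.95% lower, 3.28% in all, so the members' count was near this share. Most members had a mean of 10 CPM or more, where 0.671% of all genes were called. Psmb6 was the only member called there, and 1 gene is too few to set against that share.

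Apart from Psmb6 and Psmd10, the log2 ratios of the other 34 members ran from -0.19 (Psmd3) to 0.22 (Psmb2). Their summed level was 4335 CPM with BPA and 4336 CPM in the control. Over all 36 the median log2 ratio was 0.02 against 0.00 for all genes, and the median size of the log2 ratio was 0.07 against 0.14. Highly expressed genes differ less in general, so the size was also read within level classes. For the 23 members with a mean of 10 to 100 CPM it was 0.07 against 0.10 in all genes of that class, and for the 11 members at 100 CPM or more it was 0.05 against 0.06. The counting interval of the ratio excluded 1 in 17 of 36 members, 47.2%, against 43.1% of all genes. Of the 17, 9 were above 1 (background 21.8%) and 8 below (background 21.3%). The share with an interval that excluded 1 was larger at higher levels. At a mean of 10 to 100 CPM it was 34.8% of members against 44.9% of all genes. At 100 CPM or more it was 72.7% against 61.5%.

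**Figure D1:**
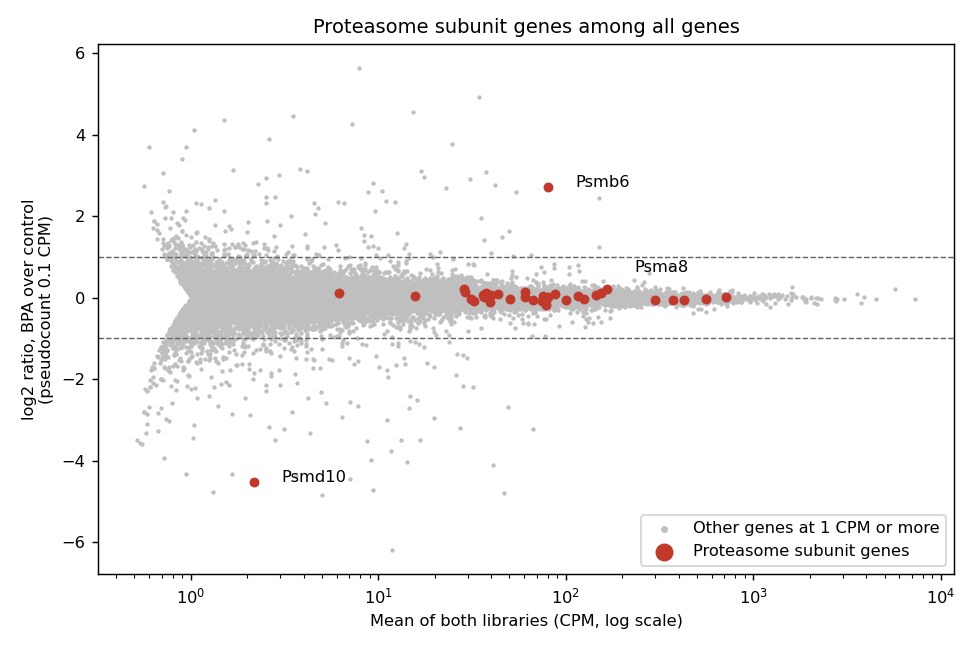
Each point is a gene that reached 1 CPM in at least 1 library; the x axis is the mean of both libraries (CPM, log axis) and the y axis the log2 ratio, BPA over control, with 0.1 CPM added to both. Red points are the 36 proteasome subunit genes at this level and dashed lines mark 2-fold; Psmb6 lies above the band, Psmd10 lies below it, and the other 34 sit close to 0.

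The alpha ring genes did not move in a common direction. Of 8 Psma genes, 4 had a log2 ratio above 0 and 4 below, and their median was 0.00. The widest difference was that of Psma8, the germ cell alpha subunit (chromosome 18 from 14706135 to 14762301, GRCm38). Psma8 was at 178 CPM (8068 reads) with BPA and 152 CPM (6369 reads) in the control. That is 1.17-fold higher (95% counting interval 1.13 to 1.21), below the 2-fold rule, and the authors' deposited table gives Psma8 a p-value of 0.155 and a q-value of 1.00. Psma7, its counterpart in somatic cells, was at 30.8 and 31.4 CPM. Per kilobase of principal transcript, Psma8 was 3.12 times as high as Psma7 in the BPA library (2.94 to 3.30) and 2.62 times in the control library (2.47 to 2.79). Both libraries therefore held more Psma8 than Psma7 transcript by this measure. With the merged length of all annotated exons, the ratios became 7.10 and 5.98.

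Psma6 had the highest level of the alpha subunit genes, also per kilobase, at 418 CPM with BPA and 432 CPM in the control. Its ratio of 0.967 (0.947 to 0.987) lay just below 1. Psma1 was at 31.4 and 33.5 CPM, Psma2 at 36.8 and 36.0 CPM, Psma3 at 60.7 and 59.7 CPM, Psma4 at 65.6 and 67.9 CPM and Psma5 at 36.9 and 34.9 CPM. The counting intervals of these 5 genes and of Psma7 all included 1. Psma5 shares 49.1% of its 50-base words with genes at other loci, chiefly the pseudogene Gm8394, and its level is uncertain for that reason.

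All 8 detected Psmb genes had a log2 ratio above 0. Without Psmb6 the other 7 ran from 0.04 to 0.22 with a median of 0.12, and summed to 463 CPM with BPA against 430 CPM in the control. Among all genes 50.9% had a ratio above 0. The structural, non-catalytic beta subunit genes were Psmb1 at 62.9 and 57.6 CPM, Psmb2 at 30.7 and 26.3 CPM, Psmb3 at 44.8 and 42.3 CPM and Psmb4 at 118 and 115 CPM. Psmb2 was 1.17-fold higher (1.08 to 1.27) and Psmb1 1.09-fold higher (1.04 to 1.15), while the intervals of Psmb3 and Psmb4 included 1. In the authors' deposited table none of these 4 genes has a p-value below that of Psmb2, 0.551.

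The 3 constitutive catalytic subunit genes were uneven. Psmb5, the chymotrypsin-like subunit (chromosome 14 from 54614120 to 54617995), was at 38.9 CPM with BPA and 35.9 CPM in the control. Psmb7, the trypsin-like subunit (chromosome 2 from 38588046 to 38643952), was at 161 and 148 CPM. Psmb6 (gene ID 19175, chromosome 11 from 70525324 to 70527858) had 6305 reads with BPA and 886 in the control. Psmb6 thus differed far more than its catalytic partners, which were 1.08-fold (1.01 to 1.16) and 1.09-fold (1.05 to 1.13) higher. Its ratio was 6.56 (6.11 to 7.04), and the authors' deposited table lists it among 28 called genes with a log2 fold change of 2.71 and a q-value of 1.02e-18. No other member is in that list.

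The order of transcript levels among the catalytic subunit genes changed with Psmb6. These are RNA levels, and protein was not measured here. Per kilobase, Psmb6 stood at 0.209 times the level of Psmb7 in the control library (0.194 to 0.224) and at 1.25 times in the BPA library (1.21 to 1.30). Against Psmb5 the ratio was 0.666 (0.612 to 0.724) in the control library and 4.02 (3.82 to 4.24) in the BPA library. Psmb7 against Psmb5 was 3.21 and 3.19, so the pair without Psmb6 was alike in the libraries. With merged exon lengths the ratios to Psmb7 were 1.58 and 0.262 and those to Psmb5 1.72 and 0.284, and Psmb6 was again the lower gene of each pair in the control library and the higher in the BPA library. Psmb7 over Psmb5 by those lengths was 1.09 and 1.08. Psmb5 shares 47.4% of its words with other loci, chiefly Gm3375, so ratios to it are uncertain. Psmb6 itself shares 1.05%, with the pseudogene Psmb6-ps2, and has no exon overlap with another annotated gene. Few genes of its level differed as far: of 9979 genes whose mean reached 10 CPM, 9 were at least as far higher, Psmb6 included. In that class 0.301% of genes were called higher and 0.371% lower, 0.671% in all.

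**Figure D2:**
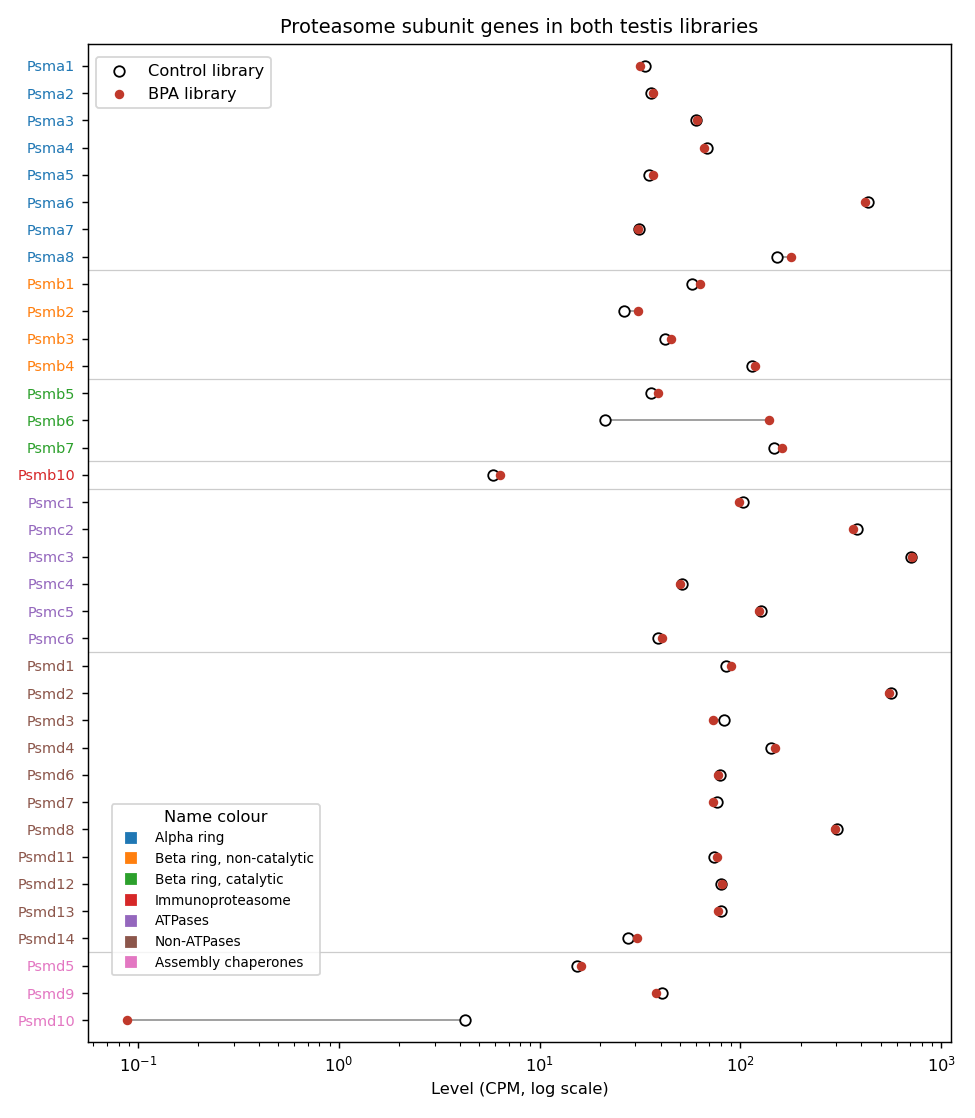
Level of each of the 36 detected members (CPM, log axis) in the control library (open circles) and the BPA library (red points), joined by a line and grouped by role in the complex. The circles overlap or touch for nearly all genes, while Psmb6 runs from 21.2 to 139 CPM and Psmd10 from 4.23 down to 0.0881 CPM.

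Of the 3 interferon-inducible catalytic subunit genes, only Psmb10 had a measured level. Psmb10, which replaces Psmb7 in the immunoproteasome, was at 6.37 CPM (289 reads) with BPA and 5.88 CPM (246 reads) in the control. Its ratio of 1.08 (0.910 to 1.29) included 1, and per kilobase Psmb10 stood at 0.0350 and 0.0353 times the level of Psmb7 (0.0794 and 0.0800 with merged exon lengths). Psmb9, the counterpart of Psmb6, was listed at 0 in both libraries, where a listed 0 means under 1 CPM. Psmb8, the counterpart of Psmb5, carried no value. Psmb11, the catalytic subunit of the thymus, was listed at 0 in both libraries, and the authors' deposited table gives it a log2 fold change of -1.12 (q-value 1.00). Psmb8 and Psmb9 flank Tap1 in the major histocompatibility region of chromosome 17, from 34198195 to 34201454 and from 34182030 to 34187330. Tap1, a peptide transporter gene whose exons overlap those of Psmb9 on the opposite strand, was also listed at 0 in both libraries.

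The promoter windows of Psmb6, its partner Psmb5 and Psmd10 are shown because Psmb6 and Psmd10 are the called members and Psmb5 holds the same type of motif as Psmb6 at a level that hardly differed. Each is the reference sequence of the 250 bases before the transcript start used in the RefSeq promoter table (GRCm38.p6), 5′ to 3′ on the strand of the gene, and not that of the BALB/c strain. Capitals mark matches, on either strand, to TGACNNNGC (the antioxidant response core bound by Nfe2l1 and Nfe2l2), CCAAT (bound by nuclear factor Y) and GGGCGG (the GC box bound by Sp1). The window of Psmb6 is chr11:70525107-70525356 on the plus strand, that of Psmb5 chr14:54617996-54618245 on the minus strand and that of Psmd10 chrX:140956712-140956961 on the minus strand. For Psmb6 that start is base 70525357, and the RefSeq span of the gene begins upstream of it, so the last 33 bases of its window lie inside the span.
Psmb6: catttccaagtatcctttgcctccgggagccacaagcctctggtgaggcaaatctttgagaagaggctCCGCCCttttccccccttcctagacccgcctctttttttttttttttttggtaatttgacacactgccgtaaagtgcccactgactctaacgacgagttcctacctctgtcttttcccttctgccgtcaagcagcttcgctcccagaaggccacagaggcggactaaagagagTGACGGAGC
Psmb5: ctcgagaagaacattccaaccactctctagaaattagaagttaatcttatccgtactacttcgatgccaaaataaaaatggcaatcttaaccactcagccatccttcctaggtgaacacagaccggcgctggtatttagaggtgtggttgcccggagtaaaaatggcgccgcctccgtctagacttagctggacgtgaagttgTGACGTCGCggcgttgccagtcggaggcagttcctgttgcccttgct
Psmd10: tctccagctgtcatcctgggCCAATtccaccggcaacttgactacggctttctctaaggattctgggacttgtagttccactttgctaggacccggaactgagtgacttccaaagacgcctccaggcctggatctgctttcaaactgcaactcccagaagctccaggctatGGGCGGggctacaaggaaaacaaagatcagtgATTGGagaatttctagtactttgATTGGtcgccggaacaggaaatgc

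In Psmb6 the match TGACGGAGC is the last 9 bases before the start used here, which places it inside the RefSeq span, and a GC box reads CCGCCC on the gene's strand. In Psmb5 the match TGACGTCGC lies 38 bases before the start. Psmd10 has no TGACNNNGC match but has CCAAT boxes in both orientations and a GC box. Of the 39 members, 32 have a window in the RefSeq table. TGACNNNGC was present in 5 of 32 members, 15.6%, against 10.2% of all 32851 windows: Psmb5, Psmb6, Psmc6, Psmd9 and Psmd12. CCAAT was present in 13 of 32 (40.6%) against 33.8%, and GGGCGG in 18 of 32 (56.2%) against 32.7%. Among the 5 with TGACNNNGC, Psmb6 was 2-fold or more apart and Psmb5, Psmc6, Psmd9 and Psmd12 were not, with log2 ratios of 0.12, 0.07, -0.10 and 0.02. A match describes the letters of the window and shows no binding. Of the factors named here, Nfe2l1 was at 101 CPM with BPA and 93.7 CPM in the control, Nfe2l2 at 14.7 and 13.1 CPM and Sp1 at 38.1 and 41.4 CPM. The 3 nuclear factor Y genes had log2 ratios below 0, at -0.16 (Nfya), -0.20 (Nfyb) and -0.13 (Nfyc), and their counting intervals included 1. Nfyc shares 22.2% of its words with Gm9144.

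The ATPase genes of the regulatory particle, whose products form the ring that unfolds the substrate, differed little. Psmc3, the member with the highest level per kilobase, was at 715 CPM with BPA and 709 CPM in the control (ratio 1.01, 0.994 to 1.03). Psmc2 was at 363 and 379 CPM (0.959, 0.938 to 0.980) and Psmc1 at 98.0 and 103 CPM (0.954, 0.914 to 0.995). Psmc4 at 49.8 and 51.2 CPM, Psmc5 at 123 and 127 CPM and Psmc6 at 40.9 and 39.0 CPM had intervals that included 1. Of the 6 genes 2 had a log2 ratio above 0, the median was -0.04 and the range -0.07 to 0.07.

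The 11 non-ATPase subunit genes, apart from the chaperones, ran from -0.19 to 0.14. Psmd3, a subunit of the lid, was at 73.0 CPM with BPA and 83.1 CPM in the control, a ratio of 0.878 (0.837 to 0.921). Psmd14, the deubiquitinase of the lid, was at 30.4 and 27.6 CPM, a ratio of 1.10 (1.02 to 1.19). The widest differences of the lid thus pointed in opposite directions. The base scaffold genes Psmd1 and Psmd2 were at 89.8 and 85.0 CPM and at 549 and 563 CPM. The ubiquitin receptor gene Psmd4 was at 148 and 141 CPM, a ratio of 1.05 (1.01 to 1.09). The remaining lid genes were Psmd6 at 77.5 and 79.0 CPM, Psmd7 at 73.1 and 76.7 CPM, Psmd8 at 294 and 304 CPM, Psmd11 at 76.4 and 74.0 CPM, Psmd12 at 80.9 and 79.6 CPM and Psmd13 at 77.2 and 80.2 CPM. Of these 6 only Psmd8 had an interval that excluded 1 (0.968, 0.944 to 0.991).

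Psmd5, Psmd9 and Psmd10 encode chaperones that hold the ATPases during assembly and leave the finished particle. Psmd5 was at 16.0 CPM with BPA and 15.4 CPM in the control, and Psmd9 at 38.0 and 40.8 CPM. Psmd10 (gene ID 53380, chromosome X from 140948425 to 140956711) was listed at 0 in the BPA library. The fold change in the authors' deposited table fills that value as 4 reads against 177 in the control library, a 48.0-fold lower level (18.4 to 178). Psmd10 alone among the 3 chaperones was apart, and alone among the 36 members it reached 1 CPM in the control library only. The authors' deposited table gives it a log2 fold change of -5.59, a p-value of 0.0325 and a q-value of 1.00, and it is not in the authors' list. Of 5358 genes with a mean of 1 to 4 CPM, 2 were at least as far lower, Psmd10 included. Psmd10 shares no 50-base word with another locus and no exon with another GENCODE gene. The RefSeq span of the autophagy protease gene Atg4a (X, from 140953845 to 141164194) begins inside that of Psmd10, and Atg4a was listed at 0 in both libraries.

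Taken by particle, 12 of 16 detected core genes had a log2 ratio above 0, with a median of 0.08. Of the 20 regulatory genes, the 3 chaperones included, 8 did, with a median of -0.04. Among all genes 50.9% had a ratio above 0. That share was 53.9% at a mean of 10 to 100 CPM and 44.6% at 100 CPM or more. The part of level in the contrast between the particles was not tested. The core genes summed to 1459 CPM with BPA and 1299 CPM in the control, and the regulatory genes to 3015 and 3062 CPM. Without Psmb6 the core sums were 1320 and 1278 CPM, a ratio of 1.03, so most of the excess of the core was that of 1 gene. All members together made up 0.447% of all reads with BPA and 0.436% in the control.

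**Figure D3:**
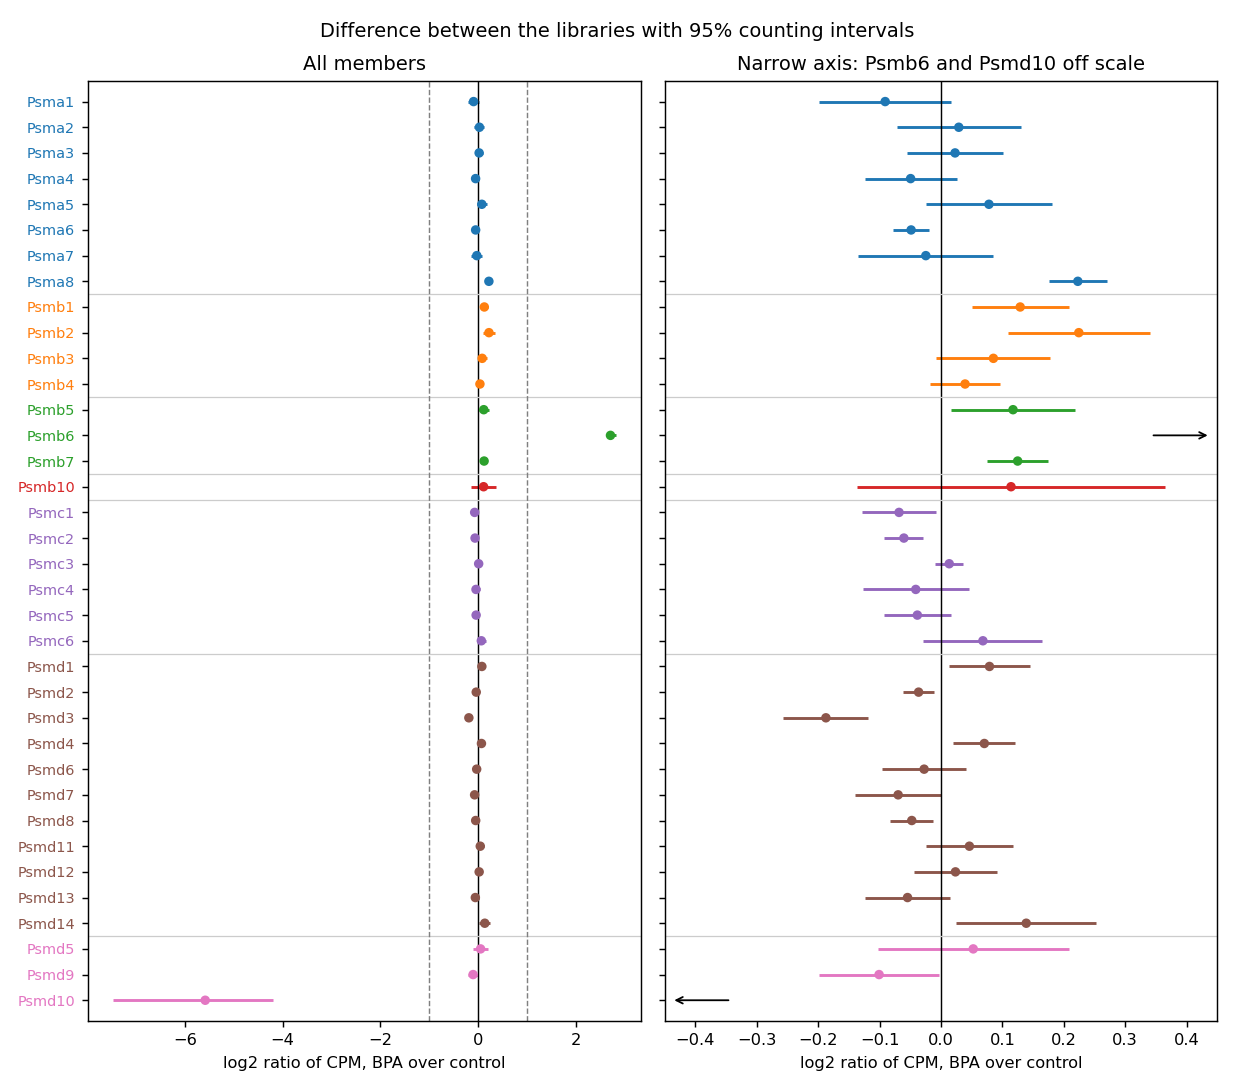
log2 ratio of CPM (BPA over control, no pseudocount) for each of the 36 detected members with its 95% counting interval, in the colours of the plot of levels. The left panel holds all members with dashed lines at 2-fold; the right panel narrows the axis to show the other 34, where all Psmb points lie right of 0 and most Psmc points left of it, with arrows for Psmb6 and Psmd10 off scale.

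Levels of different subunits are comparable only per length, and by that measure the members' transcripts were far from equal. Per kilobase of principal transcript, core genes ran from 4.49 (Psmb10) to 414 CPM (Psma6) in the control library, with a median of 33.5. The regulatory genes ran from 2.96 (Psmd10) to 433 CPM per kilobase (Psmc3), with a median of 41.1. Psmb10 is a replacement subunit and Psmd10 a chaperone, so neither is a fixed part of the standard particle. Without replacement and chaperone genes, the lowest in the control library were Psma2 (12.4) for the core and Psmc6 (17.4) for the regulatory particle. In both libraries the order of the top 5 was Psmc3, Psma6, Psmc2, Psmd8 and Psmd2. The order of the 36 genes was nearly the same in the BPA library: 14 kept their rank and 21 moved by at most 4 places. Psmb6 moved from the 27th place (26.6 CPM per kilobase) to the 6th (174 CPM per kilobase). Psmd10 was last in both, at 0.0616 and 2.96 CPM per kilobase. Neighbours in the middle of the order, such as Psmb1 and Psmb2 at 35.8 CPM per kilobase each in the BPA library, cannot be ranked, and the order rests on 1 annotated transcript a gene.

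**Figure D4:**
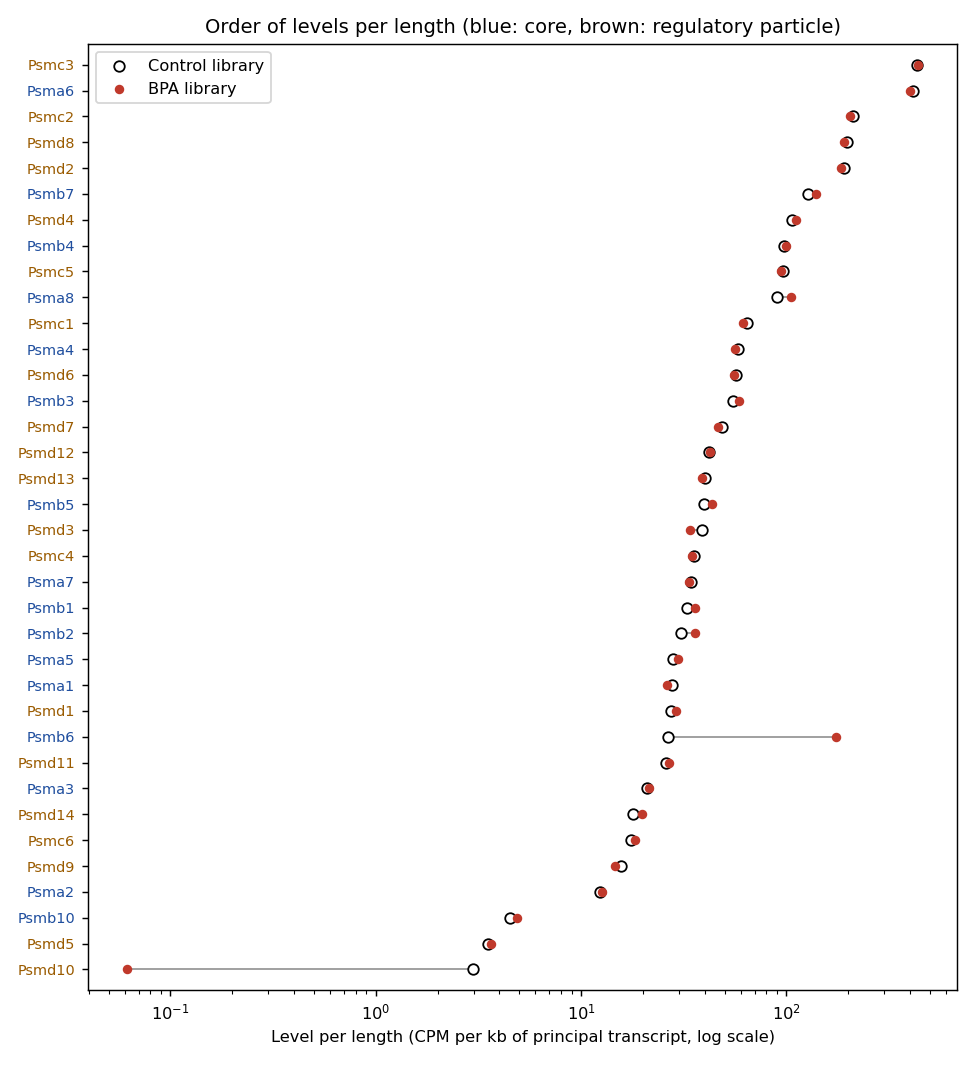
Level per kilobase of principal transcript (CPM per kb, log axis) of the 36 detected members, ordered by the control library (open circles), with the BPA library as red points and blue and brown names for core and regulatory genes. The red points lie near the control circles except for Psmb6, which moves from 26.6 to 174, and Psmd10, which drops from 2.96 to 0.0616.

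Many of the genes around Psmb6 were called as well. Within 1 Mb of its start, 61 genes reached 1 CPM, of which 4 were called higher and 10 lower, 23.0% against 3.28% of all genes. Around the other 35 members the share had a median of 1.75%, and its highest value was 16.7% (Psmd14, 1 of 6 genes). Of those 35 members 16 had no called neighbour, and none had more than 3. Members that lie close to each other share neighbours, and no test of a difference between members was made. Neighbours were counted because earlier results of these data had shown differences that cluster by position. The count is therefore a description and not a separate finding. Within 0.5 Mb of Psmb6 there were 23 such genes, with 2 higher and 6 lower. Psmd10 had 7 neighbours within 1 Mb and none was called. Its nearest, Vsig1, was at 1.63 CPM with BPA and 1.20 CPM in the control.

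The called neighbours of Psmb6 went in both directions and were interspersed with genes that lay within 2-fold. The 4 higher ones were Zmynd15, a repressor needed for spermatid maturation (45.9 against 3.25 CPM, 14.1-fold), 2810408A11Rik (55.8 against 14.4 CPM, 3.87-fold), the Wnt pathway gene Dvl2 (12.2 against 4.59 CPM, 2.65-fold) and the nuclear pore gene Nup88 (69.7 against 34.4 CPM, 2.03-fold). The 10 lower ones were led by the acetylcholine receptor gene Chrne (0.992 against 17.2 CPM, 17.4-fold), Neurl4 (1.56 against 27.0 CPM, 17.2-fold), the corepressor gene Gps2 (12.8 against 121 CPM, 9.45-fold), Spag7 (1.41 against 11.4 CPM, 8.09-fold) and the coregulator gene Pelp1 (1.98 against 12.1 CPM, 6.12-fold). The others were Phf23 (3.44-fold lower), the translation factor gene Eif5a (3.07-fold), the ubiquitin ligase gene Rnf167 (3.00-fold), Derl2, of the endoplasmic reticulum export of misfolded proteins (2.14-fold), and Arrb2 (2.13-fold). Between Zmynd15 and the kinase gene Mink1 Psmb6 was the only gene listed at 1 CPM or more: Gltpd2, Vmo1, Tm4sf5 and Gm40193 carried no value. Pld2 was listed at 0 in both libraries, and the authors' deposited table gives it a log2 fold change of 1.88, on reads under 1 CPM. Mink1, whose start lies 36.3 kb from that of Psmb6, was at 4.78 CPM with BPA and 3.95 CPM in the control. Exon overlap and shared words were not checked for the called neighbours. The spans of Gps2 and Eif5a overlap, and that of Chrne holds 4930544D05Rik. The value of Chrne with BPA was listed at 0 and filled from the deposited fold change.

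**Figure D5:**
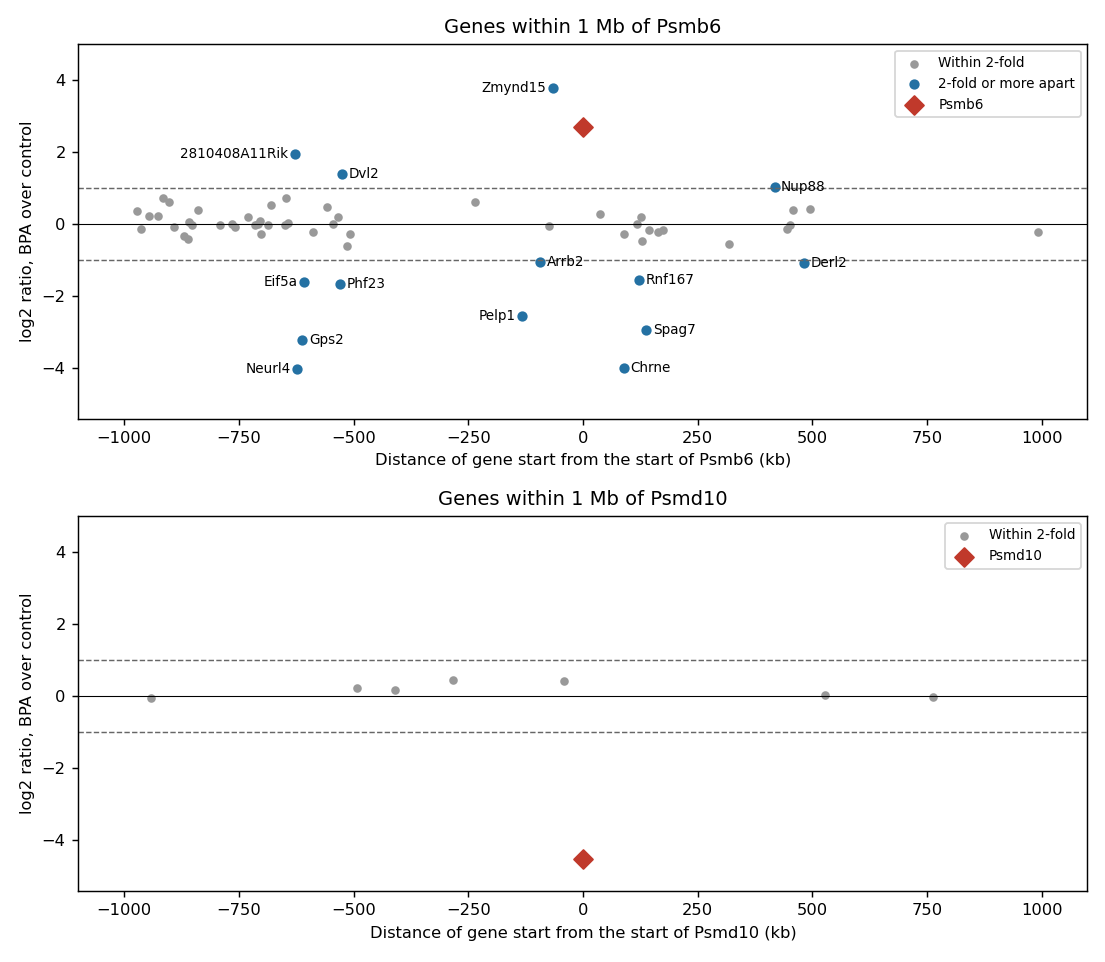
log2 ratio of BPA over control (pseudocount 0.1 CPM) for genes at 1 CPM or more, against the distance of their start from the start of Psmb6 (top) or Psmd10 (bottom) in kb. Blue points are called genes and dashed lines mark 2-fold; 14 of 61 genes around Psmb6 are called, on both sides of 0, and 0 of 7 around Psmd10.

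The other genes of the ubiquitin-proteasome pathway that were listed all stayed within 2-fold. The lists do not cover the whole pathway, and Rnf167 and Derl2, called lower near Psmb6, are not in them. In 6 lists with 46 genes, all at 1 CPM or more, 0 were called higher and 0 lower. By the same rule 3.28% of all genes were called, and 0.671% of those with a mean of 10 CPM or more. A count of 0 among 46 is thus near the background. The median log2 ratio was -0.02 against 0.00 for all genes. The counting interval excluded 1 in 26 of the 46, 56.5%, against 43.1% of all genes. Of these, 9 were above 1 (background 21.8%) and 17 below (background 21.3%). Among all genes the share that excluded 1 was 44.9% at a mean of 10 to 100 CPM and 61.5% at 100 CPM or more. The 46 genes were not split by level, so no excess can be read from their share. Values ran from -0.44 for Ddi2, a shuttle protease that activates Nfe2l1 (5.77 CPM with BPA and 7.87 CPM in the control), to 0.40 for the segregase gene Vcp (180 and 136 CPM). Vcp shares 40.5% of its words with Vcp-rs, so its reads are uncertain. Exons of Ddi2 overlap those of Rsc1a1 on the same strand over 18.3% of their length, so the reads of Ddi2 are uncertain as well.

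Among the 5 activator and inhibitor genes, Psme3 of the nuclear activator was at 137 CPM with BPA and 113 CPM in the control, a ratio of 1.21 (1.16 to 1.26). Psme1 was at 15.5 and 13.5 CPM (1.15, 1.03 to 1.28), and its partner Psme2 at 6.59 and 6.79 CPM. Psme4, the activator of germ cells, was at 582 and 615 CPM (0.946, 0.929 to 0.962), and the inhibitor gene Psmf1 at 393 and 404 CPM. The germ cell pair Psma8 and Psme4 thus went in opposite directions, both by little. Of the 6 genes listed with the assembly factors, Psmg1 was at 5.51 and 5.02 CPM and the nuclear import factor gene Akirin2 at 112 and 122 CPM. Among 8 receptors and deubiquitinases, the ubiquitin receptor gene Adrm1 was at 134 and 144 CPM and the deubiquitinase gene Usp14 at 28.4 and 26.6 CPM. The totals of the regulatory particle hold only Psmc and Psmd genes, so Adrm1 and Sem1 of this list are not in them. Of 6 ubiquitin and activating enzyme genes, the ubiquitin gene Ubb was at 2078 and 2304 CPM, a ratio of 0.902 (0.894 to 0.910), and the activating enzyme gene Uba6 at 20.3 and 18.6 CPM. Ubb (48.1%, chiefly Gm1821), Psme2 (28.3%, chiefly Psme2b) and Adrm1 (25.7%, Gm9774) share words with other loci, so their reads are uncertain. Of 8 transcription regulators, Foxo4 was at 6.74 and 5.55 CPM (1.22, 1.02 to 1.45) and Nfyb at 7.03 and 8.06 CPM (0.872, 0.746 to 1.02).

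The measured genes that work with the immunoproteasome in antigen presentation lay within 2-fold with 1 exception. Of 8 on the list, 7 reached 1 CPM. By the same rule 1.32% of all genes were called higher, and 7 genes are too few to compare with that share. Among the 7, 1 was called higher. This was Tap2, the partner of Tap1 in the peptide transporter, at 1.34 CPM (61 reads) with BPA and 0.622 CPM (26 reads) in the control, a ratio of 2.16 (1.35 to 3.56) whose log2 value of 1.00 with the pseudocount sat at the limit. With either other scaling Tap2 was no longer called. The control value of Tap2 was listed at 0 and filled from the deposited fold change. Tapbp, which links the transporter to class I molecules, was at 4.23 and 2.25 CPM, a ratio of 1.88 (1.46 to 2.43). Both lie on chromosome 17 in the region of Psmb8 and Psmb9. Genes outside this list differed there too. Brd2 was at 67.0 CPM with BPA and 7.85 CPM in the control, and H2-DMb1 at 3.15 and 1.65 CPM. H2-DMb2 and H2-DMa were listed at 0 in both libraries, with deposited log2 fold changes of 3.13 and -1.70. The part of position in the values of Tap2 and Tapbp was not tested. B2m, the light chain of class I molecules, was at 35.2 and 35.0 CPM, and Irf1, a regulator of the immunoproteasome genes, at 2.62 and 3.33 CPM. Exons of Tap2 and Tapbp overlap those of other annotated genes on the opposite strand, and reads there cannot be assigned without strand. Tapbp also overlaps Zbtb22 on the same strand, where strand would not tell the reads apart.

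Reads of several further members could belong to other loci. By GENCODE transcripts, 5 of 39 members shared 15% or more of their 50-base words with genes elsewhere: Psma5, Psmb5, Psmb3 (17.8%), Psmd2 (17.8%) and Psma3 (15.4%). Exons of 11 members overlap those of another gene, among them Psmb7 with Nek6, at 3.86 CPM with BPA and 3.59 CPM in the control, and Psmd9 with Gm26745. Psmb6, Psmd10 and Psma8, on which the differences above turn, were free of exon overlap in that annotation.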

How the data were processed

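Testis RNA was sequenced as 1 control and 1 BPA library. Per the submitters' processing notes, HISAT2 2.0.4, HTSeq 0.6.1 and build mm10 were used. Not given in the sources used here were the annotation, strand setting, scaling and test program. The deposited table of 44002 rows holds the authors' value for each library with a log2 fold change, p-value and q-value. Its header calls the values read counts, yet the authors' values are in CPM: they sum to 995266 (BPA) and 997834 (control). Values under 1 CPM appear as 0, and 10618 rows are empty. All listed values are whole multiples of 1 step per library (0.0220 CPM in BPA, 0.0239 CPM in control), within 2.33e-10 of a step, taken as 1 read. The deposited log2 fold changes filled 1404 values listed as 0, all whole within 0.01 read, and 7 zeros opposite a value above 0 had no fold change and stayed at 0. No count model was fitted, because each group has 1 library. Intervals are exact 95% binomial (Clopper-Pearson) intervals of the reads.

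Symbols and positions came from RefSeq (GRCm38, the build mm10 names), and 40269 of 41571 numeric gene IDs matched. Exon overlaps, lengths and shared 50-base words came from GENCODE M21, which matched 39 of 39 members. Promoters are the RefSeq windows of GRCm38.p6, and no protein sequence was used here. The scripts used Python 3.11.15, numpy 2.4.6, pandas 2.3.3, scipy 1.17.1 and matplotlib 3.10.9, and the calling step was tested on simulated data. The members, the gene lists and the count of neighbours were chosen with earlier results of these data known. Every member may be named; of each pathway list, the called genes and the 2 with the largest log2 ratio in size; of the neighbours, the called ones. The other pathway genes, neighbours and partners were named after their values were seen. Alternatives covered the pseudocount, the floor, the fold, the scaling, the filled zeros, the nearer bound of the interval, an exact binomial test of the reads, the window around called members and the length measure.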

Additional observations from a re-analysis of the deposited data

How the results depend on the processing

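The count of members called (1 higher, 1 lower) was unchanged with a pseudocount of 1 CPM, a floor of 4 CPM, a limit of 1.5-fold or 4-fold, both other scalings, listed zeros taken as 0 and the nearer bound of the counting interval. Without a floor 2 members were lower, Psmb11 being added. An exact binomial test of the reads, two-sided with Benjamini-Hochberg adjustment, compares the libraries and not the conditions. It called 8 members higher and 6 lower (17.3% and 17.4% of all genes), the added ones all within 2-fold. Of the pathway genes, Tap2 was no longer called (0 higher) with a pseudocount of 1 CPM, a floor of 4 CPM, a 4-fold limit, either scaling or the nearer bound; 2 were higher at 1.5-fold, and the binomial test called 9 higher and 15 lower. Around Psmb6 the 0.5 Mb window held 2 higher and 6 lower genes. The core and regulatory medians kept their sign and moved little under a pseudocount of 1 CPM and both scalings. Of 108 log2 ratios of single members under these settings 107 moved little, and that of Psmd10 became -2.27 with a pseudocount of 1 CPM, since the pseudocount outweighs 4 reads. The scalings shifted log2 ratios by 0.0028 and 0.0042 and turned no member's sign. Ratios between genes per length changed with merged exon lengths, an alternative chosen after seeing the data. No paired analysis was possible because each group has 1 library, and for the same reason no replicate could be left out. Depth limits Psmd10, whose value in the BPA library rests on 4 reads, and Psmb9 and Psmb11, listed under 1 CPM.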
